A study of Mus musculus with 92 samples.

Results

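Control macrophages differentiated with 10 uM baricitinib, an inhibitor of the kinases JAK1 and JAK2, were compared with control macrophages that received 0 uM. The comparison holds 6 of the 92 RNA-seq samples of the series, 3 a dose, taken by their labels (control guide, dose and day of culture) and by no measured value. The series covers ER-Hoxb8 cells, conditionally immortalised myeloid progenitors from mouse bone marrow that stay immature while estradiol keeps a Hoxb8 fusion protein active, and the macrophages made from them. In the baricitinib experiment, a control line (NTC) and a line with the first of the study's guides against Adar1 (Adar1 KO) were each given 5 doses, in 33 libraries of 10 groups. Baricitinib served there to ask how far interferon signalling underlies what the loss of Adar1 does to macrophages, and the NTC samples give the response of cells without that edit.

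The cells of both groups came from FVB/NJ mice heterozygous for a Cas9 transgene, carried a non-targeting guide, and were differentiated for 7 days in medium with M-CSF after removal of estradiol and GM-CSF. The treated cultures received 10 uM baricitinib with each change of medium, and the labels give the other cultures 0 uM without saying whether these received the solvent. Other groups serve for comparison below: NTC macrophages at 0.0006 uM (n = 3), 0.016 uM (n = 4) and 0.4 uM (n = 4), and Adar1 KO macrophages at 0 uM (n = 3) and 10 uM (n = 4). These doses are the ones of the sample titles, while the protocol text gives 0.00064 and 0.16 uM in place of 0.0006 and 0.016 uM, and 0, 0.4 and 10 uM are the same in both. All samples are cultures of transduced lines and not animals, and the labels do not say how the numbered replicates were made. The methods give 4 separate differentiations a condition for the assay of secreted proteins whose adherent cells yielded the RNA of the baricitinib groups, of which 3 or 4 libraries a group are deposited, so that p-values measure the spread between these cultures.

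Cytokine receptors without an enzymatic domain signal through Janus kinases, which phosphorylate STAT proteins that then enter the nucleus. Type I interferon acts through JAK1 and TYK2 and through a complex with STAT2 and IRF9 that binds interferon-stimulated response elements (ISREs), while GM-CSF and IL-3 use JAK2 and STAT5, and IL-4 uses STAT6. Macrophages in culture keep a low tonic interferon signal, and M-CSF, on which they depend, acts through the receptor kinase CSF1R and needs no JAK to start its signal.

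The deposited values are TMM-normalised CPM (counts scaled to a library of 1 M) on the log2 scale, and CPM below were recovered from them. Macrophage genes were abundant in all 6 libraries. Cd14, the lipopolysaccharide co-receptor, had 3527, 4241 and 3928 CPM at 0 uM and 4403, 4160 and 4763 CPM at 10 uM, and Csf1r had 1530, 1657 and 1356 CPM against 1545, 2028 and 1379 CPM. Neither gene passed the test between the doses (log2FC 0.19, adjusted p = 0.502, and 0.11, adjusted p = 0.792). Of 11 markers of progenitors only Cd34 was high enough to be tested, at no more than 1.64 CPM in any of the 6 libraries, and Kit was listed at 0 in 5 of them. Markers of lymphocytes summed to less than 1 CPM and those of mast cells and basophils were listed at 0 in all 6. On the first principal component, with 43.3% of the variance, the 2 groups lay apart, and the second, with 18.6%, separated replicate 1 of 0 uM from the other libraries. The 10 most abundant genes took 23.9% to 25.6% of the CPM at 0 uM and 17.8% to 21.1% at 10 uM.

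Of 11152 genes tested, 656 were higher and 886 lower at 10 uM at an adjusted p under 0.05, which is 5.88% and 7.94% of all. With the further limit that the study set, a log2FC of at least 2, 18 genes (0.161%) were higher and 75 (0.673%) lower. All 3 libraries of 10 uM lay above all 3 of 0 uM for 2183 genes (19.6%) and below them for 2361 (21.2%). The median log2FC over all genes was -0.005. These counts come from a fit of the 33 libraries of the experiment, which share 1 estimate of the spread for each gene. A fit of the 17 NTC libraries alone called 1426 genes higher (13.2%) and 1645 lower (15.3%) of 10781, among them 1525 of the 1542 genes (98.9%) called with 33 libraries, all in the same direction. The counts depend on single libraries as well: 222 genes were higher and 441 lower without replicate 1 of 0 uM, 340 and 540 without replicate 1 of 10 uM, and 242 and 554 without replicate 2 of 10 uM, while 404 were higher without replicate 3 of 0 uM. Of the genes with a log2FC of at least 2, 9 were higher without replicate 2 of 10 uM and 11 without replicate 1 of 0 uM, and 50 were lower without the latter.

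**Figure D1:**
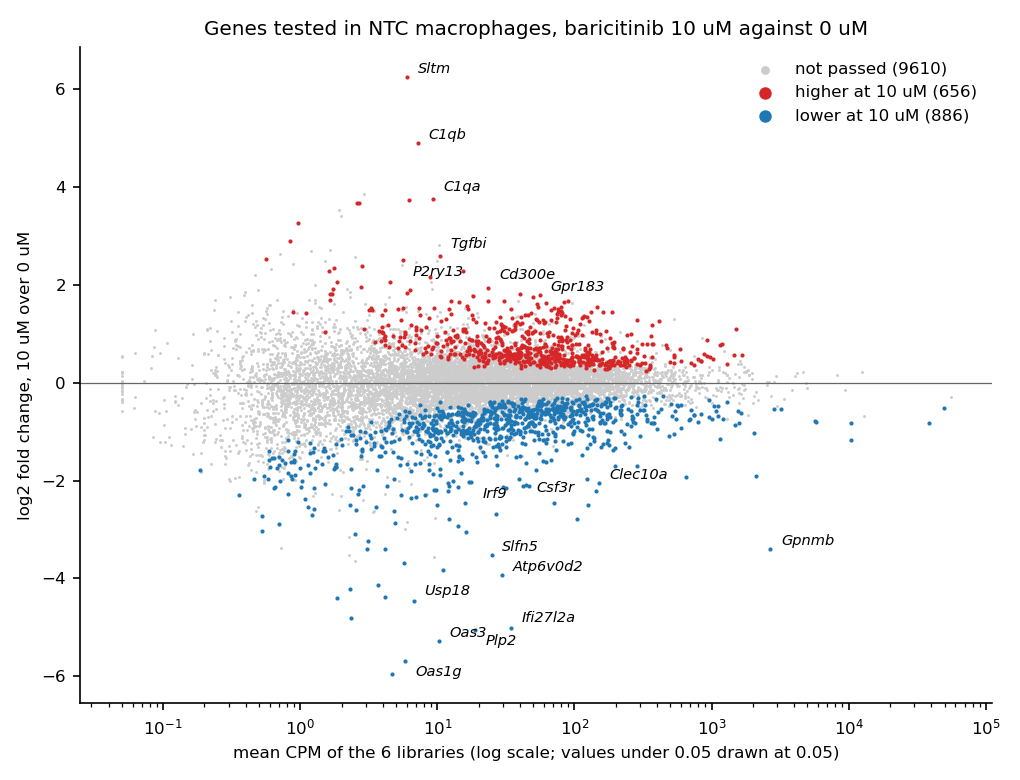
Each point is 1 of the 11152 genes tested, with the mean CPM of the 6 libraries on the x axis (log scale) and the log2 fold change of 10 uM over 0 uM baricitinib on the y axis. The 656 genes called higher are red and the 886 called lower blue, and Plp2 (log2FC -5.06) and the more abundant Gpnmb (-3.40) lie far below 0.

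Among the genes with the largest falls were those that interferon induces. Oas1g, an oligoadenylate synthetase that answers double-stranded RNA, had 15.7, 9.03 and 9.88 CPM at 0 uM and 0, 0.155 and 0.0938 CPM at 10 uM. Oas3, a larger enzyme of the same family, went from 24.1, 20.3 and 15.8 CPM to 0.243, 0.666 and 0.281 CPM. All 3 treated libraries were far below all 3 controls for both, and the log2FC was -5.70 (SE 0.94, adjusted p = 0.000203) and -5.28 (SE 1.13, adjusted p = 0.00248). With levels this near 0 at 10 uM, the size of these values depends on the prior count in the deposited log2 values. Oas2 was listed at 0 in the 3 libraries of 10 uM and at 14.3, 7.35 and 6.47 CPM in the controls, so that no fold is given for it (adjusted p = 0.00104). Usp18, which removes the ubiquitin-like ISG15 from proteins and damps the type I interferon receptor, fell from 17.5, 10.4 and 11.1 CPM to 0.248, 0.678 and 0.462 CPM (log2FC -4.46, SE 1.34, adjusted p = 0.026). Ifi27l2a, another interferon-induced gene, fell from 88.6, 63.4 and 49.0 CPM to 1.05, 2.22 and 2.75 CPM (log2FC -5.02, SE 0.87, adjusted p = 0.000348). Oas1g, Oas1a and other mouse Oas1 genes are close copies of each other, as are the Schlafen genes named further on, and the assignment of reads between such copies is uncertain.

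The study plotted 20 interferon-stimulated genes (ISGs) for the Adar1 KO cells, and these serve as a panel here. In the fit of 33 libraries, 6 of the 20 were lower at 10 uM, against 7.94% of all genes, and 0 higher: Oas1a, Oas1g, Oas2, Oas3, Usp18 and Zbp1. The median log2FC of the panel was -1.74, and for 15 of the 20 genes all 3 libraries of 10 uM lay below all 3 of 0 uM, against the 21.2% of all genes. Oas1a, the most abundant of the 6, had 132, 116 and 112 CPM at 0 uM and 18.4, 21.2 and 26.3 CPM at 10 uM (log2FC -2.45, SE 0.64, adjusted p = 0.0114). Zbp1, a sensor of Z-form nucleic acids, fell from 7.92, 4.07 and 5.11 CPM to 0.779, 0.409 and 0.2799 CPM (log2FC -3.23, adjusted p = 0.0242). The panel did not move as 1 block. Ccl2, a chemokine that draws monocytes, had 52.0, 71.4 and 50.9 CPM at 0 uM and 58.2, 48.9 and 74.0 CPM at 10 uM, and Herc6, the mouse ligase for ISG15, had 26.9, 20.1 and 23.97 CPM against 25.7, 23.1 and 22.9 CPM. The groups overlapped for both, as they did for Ifit2 (13.9, 16.98 and 12.02 CPM against 12.5, 11.5 and 12.1 CPM), an antiviral RNA-binding protein. The log2FC of these 3 genes was 0.05 (adjusted p = 0.958), 0.02 (adjusted p = 0.99) and -0.23 (adjusted p = 0.927), and Cxcl10 and Ifi44 were under 1.1 CPM in all 6 libraries.

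**Figure D2:**
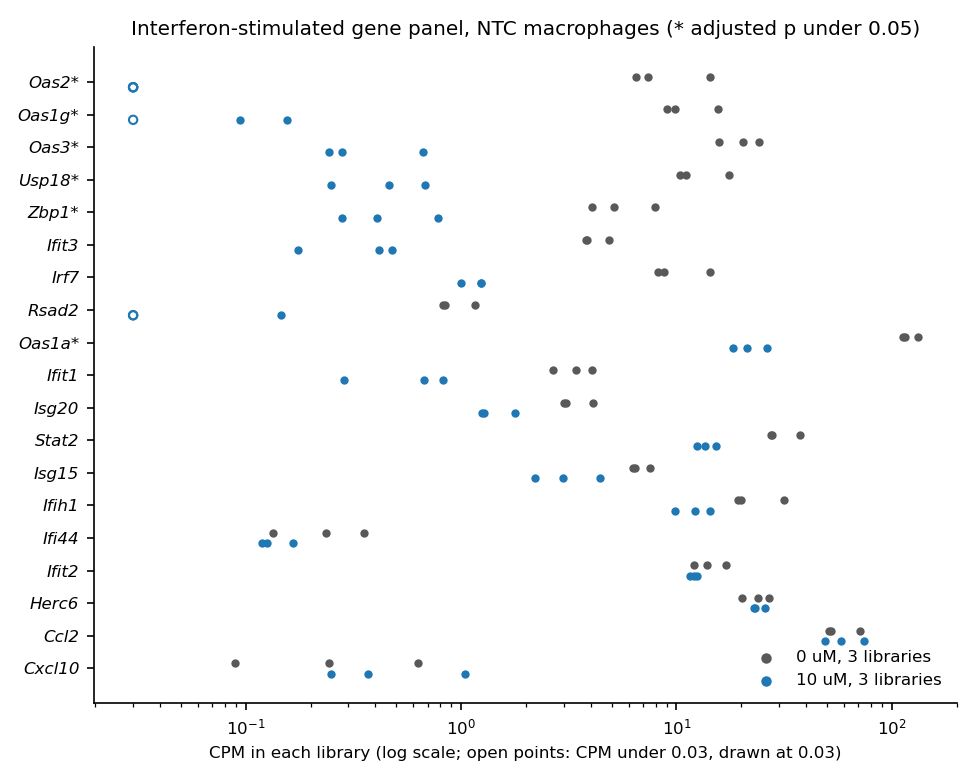
Each point is the CPM of 1 library (x axis, log scale) for a gene of the ISG panel, grey for the 3 libraries at 0 uM and blue for the 3 at 10 uM, and open points stand for CPM under 0.03. The blue points lie left of the grey ones without overlap for most genes drawn, and the 6 genes with an asterisk had an adjusted p under 0.05.

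1 library outside the comparison widened the spread with which the panel was tested. In the library labelled Adar1 KO 0.4 uM replicate 2, Ifit2 stood at 16059 CPM and Usp18 at 2720 CPM, while the other 2 libraries of that group had 12.1 and 42.2 CPM of Ifit2 and 1.07 and 8.01 CPM of Usp18. The residual SD of the log2 values had a median of 1.46 over the panel and of 0.277 over all genes with the 33 libraries. Without that library the medians were 0.499 and 0.246, and within the 17 NTC libraries 0.449 and 0.214. With that library left out, an alternative chosen after seeing the data, 15 of the 20 genes were lower, where 1255 of all 11128 were, and the fit of the NTC libraries called 14 of 17 tested lower, where 15.3% of all were. Irf7, the factor that amplifies interferon transcription, went from 14.3, 8.24 and 8.72 CPM to 0.996, 1.24 and 1.24 CPM, with an adjusted p of 1.01e-05 in the NTC fit and 0.0855 with 33 libraries. Its values did not overlap between the doses. With a single control library left out of the 33, the count of the panel fell to 3 without replicate 1 of 0 uM.

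The promoters of the panel were searched for the core of the ISRE, GAAANNGAA, and for the GAS element of STAT dimers, TTCNNNGAA, on both strands of the 250 bases before each gene start. The sequences are those of RefSeq on build GRCm38.p6, matched by symbol, while the study counted reads on GRCm39. The ISRE core was in 10 of the 15 genes of the panel that have a promoter in the table (66.7%), against 2211 of all 27025 genes (8.18%). GAS was in 3 of the 15 (20%), against 2197 of all genes (8.13%). Of the 15 genes with the largest falls, 8 have a promoter there, of which Oas1g, Oas3 and Slfn5 held the ISRE core (37.5%) and 0 held GAS. Of the 15 with the largest rises, Tgfbi held the ISRE core and Cd300e held GAS (8.33% of 12 each). A match is a run of letters and not a site that was shown to be bound. The 150 bases before the start of 4 genes of the panel are printed as examples of matches near the start, with each match to GAAANNGAA or its reverse complement in capitals, where neighbouring matches overlap. Isg15 (57 bases), Ifit3 (93 bases), Ifih1 (103 bases) and Rsad2 (110 bases) also hold a match within 150 bases of the start and are not printed. The core lies farther off in Stat2 (212 bases) and Cxcl10 (204 bases). The printed stretches lie at chr5:120887614-120887763 (minus strand) for Oas1g, chr5:120907526-120907675 (minus strand) for Oas1a, chr5:120777660-120777809 (minus strand) for Oas3 and chr19:34640739-34640888 (plus strand) for Ifit1.
Oas1g: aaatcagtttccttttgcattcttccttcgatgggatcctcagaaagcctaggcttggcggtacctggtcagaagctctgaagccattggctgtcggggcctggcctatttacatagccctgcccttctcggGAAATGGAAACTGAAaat
Oas1a: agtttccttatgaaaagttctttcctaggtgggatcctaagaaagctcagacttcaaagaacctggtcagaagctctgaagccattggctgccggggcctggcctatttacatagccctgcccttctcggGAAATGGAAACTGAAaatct
Oas3: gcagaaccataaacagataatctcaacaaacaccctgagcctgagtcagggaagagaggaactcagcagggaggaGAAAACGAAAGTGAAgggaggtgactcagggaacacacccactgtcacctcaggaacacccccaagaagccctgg
Ifit1: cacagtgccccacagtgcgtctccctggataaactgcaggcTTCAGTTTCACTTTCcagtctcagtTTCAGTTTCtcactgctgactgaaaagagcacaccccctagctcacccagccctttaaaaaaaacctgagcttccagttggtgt

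In Oas1g and Oas1a the same pair of overlapping matches ended 3 and 5 bases before the start, and the match nearest to it ended 60 bases before it in Oas3 and 75 bases in Ifit1. Ifit1, which binds RNA without the host cap, had 3.40, 4.05 and 2.68 CPM at 0 uM and 0.824, 0.676 and 0.288 CPM at 10 uM, with an adjusted p of 0.268 with 33 libraries and 0.000405 in the NTC fit.

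The lower doses show where on the scale the panel moved. These groups share the 0 uM controls, so their values are set side by side. The median log2FC of the panel against 0 uM was 0.02 at 0.0006 uM, -0.81 at 0.016 uM, -1.35 at 0.4 uM and -1.74 at 10 uM, while that of all genes lay between -0.011 and -0.005 at these doses. Oas1a had 120 CPM ± 11 (SD, n = 3) at 0 uM, 127 ± 22 (n = 3), 67.3 ± 4.0 (n = 4) and 36.3 ± 2.2 (n = 4) at the middle doses, and 21.96 ± 4.0 (n = 3) at 10 uM. Irf9, the DNA-binding partner of STAT2, had 75.5 ± 3.1 CPM, then 73.7 ± 12, 48.1 ± 2.7 and 22.99 ± 1.6, and 17.5 ± 2.0 at 10 uM. For both genes the levels at 0 and 0.0006 uM overlapped, and from 0.016 uM on each dose lay below the one before it in every library. Over all genes limma, in the 33-library fit, called 0 higher and 1 lower at 0.4 uM against 0 uM, and 0 either way at 0.016 and 0.0006 uM, where 598, 434 and 345 genes had an unadjusted p under 0.05. In the NTC fit limma called 26 higher and 80 lower at 0.4 uM, 3 and 12 at 0.016 uM, and 0 at 0.0006 uM, with 895 genes at an unadjusted p under 0.05 in the last.

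The direct test of 10 uM against 0.4 uM takes the 0.4 uM libraries and not those of 0 uM as its reference. It called 91 genes higher (0.816%) and 303 lower (2.72%), and none of the 20 genes of the panel, whose median log2FC in it was -0.39, while the NTC fit called 734 higher and 1065 lower, and the 7 libraries of these doses alone 517 and 752. In the NTC fit Oas1a (adjusted p = 0.000886), Oas1g (adjusted p = 0.000886) and Stat2 (adjusted p = 0.00362) were lower at 10 uM than at 0.4 uM, and Usp18 did not pass (adjusted p = 0.473). Plp2, a small membrane protein of the endoplasmic reticulum, had the lowest log2FC of the named genes in this contrast. It had 36.7, 37.0 and 35.7 CPM at 0 uM, between 24.2 and 31.9 CPM in the 11 libraries of the 3 middle doses, and 0.849, 0.694 and 1.44 CPM at 10 uM. Most of its fall therefore lay between 0.4 and 10 uM, with a log2FC of -4.51 (SE 0.16, adjusted p = 2.86e-17) in that step and -5.06 (SE 0.18, adjusted p = 8.26e-18) against 0 uM. Atp6v0d2, a subunit of the proton pump of lysosomes, had 24.3 ± 3.4 CPM at 0.4 uM and 3.63 ± 1.4 at 10 uM (log2FC -2.75, adjusted p = 5.85e-05). Cd200r4, of the CD200 receptor family, fell by 2.39 on the log2 scale between these doses (adjusted p = 2.19e-06), and Anpep, the aminopeptidase CD13, by 2.98 (adjusted p = 1.3e-05). Of the genes called higher in this step, above 5 CPM and without overlap of the groups, those with the largest log2FC were C1qb (2.99), C1qa (2.37), P2ry13 (2.25), Aif1 (1.68) and Tgfbi (1.47), with adjusted p from 0.000933 to 0.0178. The count of genes higher went to 24 without replicate 2 of 10 uM, 26 without its replicate 1, 42 without its replicate 3, 27 without replicate 1 of 0.4 uM and 58 without replicate 3 or 4 of 0.4 uM. The count lower went to 120 without replicate 1 and 147 without replicate 2 of 10 uM, and to 137 without replicate 1 and 199 without replicate 4 of 0.4 uM.

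**Figure D3:**
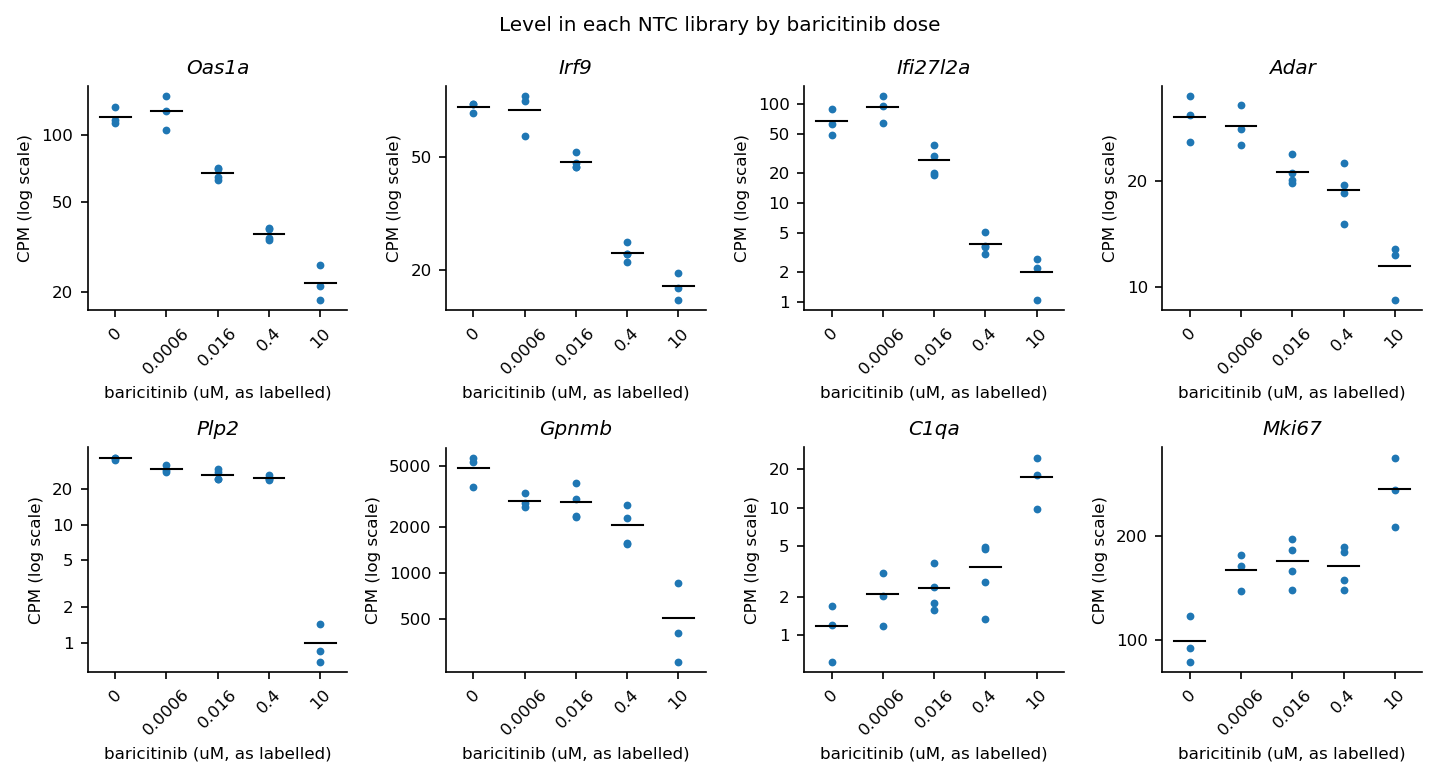
Each panel plots the CPM of 1 gene (y axis, log scale) in the 17 NTC libraries by labelled dose of baricitinib (x axis), with a point for each library and a bar at the mean of the group. Oas1a, Irf9 and Ifi27l2a step down from 0.016 uM, Plp2 drops at 10 uM, and Mki67 is above its 0 uM level at every dose.

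Further up the pathway, the receptors and the STAT proteins moved in part. Of 20 cytokine receptors tested that signal through JAKs, 6 were lower, 0 higher and 14 did not pass, with a median log2FC of -0.30, where 7.94% of all genes were lower. Csf3r, the receptor of G-CSF, had 85.3, 59.8 and 72.1 CPM at 0 uM and 17.5, 15.8 and 16.6 CPM at 10 uM (log2FC -2.10, SE 0.24, adjusted p = 1.55e-06). Il3ra, the alpha chain for IL-3, fell by 2.38 from 3.65, 0.730 and 1.49 CPM, and Il7r by 2.20 from 15.9, 12.5 and 17.9 CPM (adjusted p = 0.00926 and 0.0427). Smaller falls were those of Csf2rb2 (1.18), Csf2rb (0.57) and Il6st, the common chain of the IL-6 family (0.97), with adjusted p = 0.000801, 0.0445 and 0.00121. The interferon receptor chains Ifnar1 (log2FC -0.32, adjusted p = 0.0629) and Ifngr1 (-0.41, adjusted p = 0.0578) did not pass with 33 libraries. Both were lower in the NTC fit (adjusted p = 0.0145 and 0.00167). That fit called 9 of the 20 receptors lower and 1 higher, beside 15.3% and 13.2% of all genes. Of the 12 kinases and STATs with Irf9, 4 were lower and 0 higher (7 lower and 0 higher in the NTC fit), and the median log2FC was -0.70. Irf9 itself went from 77.5, 71.9 and 77.1 CPM to 19.6, 15.6 and 17.3 CPM (log2FC -2.10, SE 0.41, adjusted p = 0.00127). Stat5a and Stat5b, the factors below GM-CSF and IL-3 receptors, fell from 24.6, 20.1 and 18.6 to 7.94, 10.2 and 11.3 CPM and from 46.2, 31.2 and 32.99 to 17.2, 20.8 and 18.6 CPM. Stat6, the factor of IL-4 signalling, fell from 333, 309 and 294 CPM to 199, 208 and 216 CPM, so that for these 4 genes no treated library reached a control. The log2FC was -1.09, -0.94 and -0.59 for the 3 STATs (adjusted p = 0.000317, 6.62e-05 and 0.00772). The 2 kinases that baricitinib inhibits did not pass, with Jak1 at 168, 96.0 and 112 CPM against 128, 108 and 136 CPM, and Jak2 at 7.44, 9.47 and 10.3 CPM against 11.8, 9.92 and 10.5 CPM (adjusted p = 0.965 and 0.733). Of 17 feedback and immediate target genes tested, Usp18 was the only one called, no more than the share of all genes, Socs1 was listed at 0 in all 6 libraries, and the median log2FC was -0.22. Among 7 interferon regulatory factors tested, Irf9 and Irf2 (log2FC -0.53, adjusted p = 0.0368) were lower.

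Counts of antiviral genes below these factors stand beside the 7.94% of all genes called lower (15.3% in the NTC fit) and the 21.2% with all 3 treated libraries below the controls. Of the 9 genes of the OAS family with RNase L, 5 were lower (the 4 named above and Oasl2, log2FC -4.14, adjusted p = 0.0486), with a median log2FC of -2.45, and their summed level went from 212, 172 and 163 CPM to 27.7, 33.2 and 35.9 CPM. Of 22 IFIT, Mx and related effectors, 4 were lower, with a median of -1.17, and in 16 of the 22 no treated library reached a control. The 4 were Ifi27l2a, Slfn5, Slfn8 and Ifitm6, the last of a family of membrane proteins that hinder the entry of viruses. Slfn8 went from 53.8, 42.5 and 42.0 CPM to 6.55, 5.87 and 9.12 CPM (log2FC -2.67, adjusted p = 0.0165), Slfn5 fell by 3.52 (adjusted p = 0.00642) and Ifitm6 by 1.17 (adjusted p = 0.000998) on the log2 scale. Slfn1, a further Schlafen gene outside that list, went from 27.2, 17.4 and 17.5 CPM to 1.65, 0.8286 and 1.57 CPM (log2FC -3.82, adjusted p = 0.00815). Of the 6 genes of ISG15 conjugation, Usp18 and the ligase Trim25 (log2FC -1.03, adjusted p = 0.0177) were lower, while Uba7, the activating enzyme, had 76.8, 67.0 and 68.5 CPM against 43.1, 41.1 and 42.9 CPM without passing (adjusted p = 0.143, and 3.55e-05 in the NTC fit). Of 16 nucleic acid sensors 1 was lower, Zbp1, with a median of -0.59, and 8 of 14 were lower and 1 higher in the NTC fit. Adar, the editor of double-stranded RNA that the guide of the other line targets, had 34.6, 30.7 and 25.7 CPM at 0 uM and 12.8, 12.3 and 9.16 CPM at 10 uM (log2FC -1.40, adjusted p = 0.0502, and 1.79e-05 in the NTC fit).

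Genes that interferon gamma induces most strongly, and those of antigen presentation, showed no call in the 33-library fit. Of 15 GBP and IRG GTPases tested with 33 libraries (median log2FC -0.68), none was called. Only 7 of the 15 passed the filter within the NTC libraries, and of these the NTC fit called 3 lower and 1 higher. The others passed only through the Adar1 KO libraries and were under 1 CPM in all 6 libraries. Iigp1 was listed at 0 in all 6, so that the absence of a call says little of these members. None of 20 genes of MHC class I and the immunoproteasome was called either (median -0.39), although all 3 treated libraries lay below the controls for 10 of them, against 21.2% of all genes. B2m, the light chain of class I, had 1704, 1495 and 1644 CPM against 923, 887 and 1073 CPM (log2FC -0.75, adjusted p = 0.0878, and 1.69e-05 in the NTC fit). H2-K1, a class I heavy chain with close copies in the genome, had 439, 300 and 298 CPM against 185, 208 and 202 CPM (adjusted p = 0.102, and 0.000127 in the NTC fit). The groups did not overlap for either gene, and in the NTC fit 5 of the 20 were lower and 1 higher, beside 15.3% and 13.2% of all genes in that fit. Of 6 MHC class II genes tested none was called (median 0.31), and Cd74, the invariant chain, had 47.2, 58.5 and 59.3 CPM against 81.4, 96.0 and 73.8 CPM (log2FC 0.60, adjusted p = 0.0912). In the NTC fit 1 of 5 was higher and 0 lower. All treated libraries lay above the controls for 2 of the 6 and below them for 1, against 19.6% and 21.2% of all genes.

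Among secreted factors, 3 of 14 chemokines tested were lower and 0 higher, with a median log2FC of -0.01, beside 7.94% of all genes lower. Their log2FC ran from -1.92 to 2.68. All 3 treated libraries lay above the controls for 3 of the 14 and below them for 4, against 19.6% and 21.2% of all genes. The NTC fit called 2 of 13 higher and 4 lower, beside 13.2% and 15.3% of all genes. Ccl6, a constitutive macrophage chemokine, went from 1045, 914 and 1128 CPM to 265, 202 and 369 CPM (log2FC -1.92, SE 0.23, adjusted p = 1.9e-06). Ccl9 fell by 0.66 and Ccl3, another chemokine of macrophages, by 1.16 on the log2 scale (adjusted p = 0.00172 and 0.0211). Of 14 interferons and cytokines tested, Il16 alone was called (log2FC -0.51, adjusted p = 0.0139), which is near the 7.94% of all genes called lower. Of the 25 on the list, 6 were listed at 0 in all 6 libraries. Tnf had 14.01, 20.9 and 16.9 CPM against 21.2, 18.4 and 25.8 CPM (adjusted p = 0.498). Genes that STAT6 drives in alternatively activated macrophages fell in part, with 4 of 9 lower, 0 higher and a median of -0.99. Clec10a and Mgl2, galactose-binding lectins, went from 241, 227 and 254 CPM to 52.8, 47.9 and 77.4 CPM and from 50.4, 48.0 and 57.2 CPM to 10.1, 12.6 and 12.1 CPM. Mrc1, the mannose receptor, went from 50.5, 39.9 and 55.6 CPM to 9.25, 15.8 and 9.02 CPM, and Chil3, a chitinase-like protein, from 13.7, 9.06 and 12.6 CPM to 2.22, 1.49 and 3.05 CPM. For each of the 4 the highest treated library was below the lowest control, with a log2FC of -2.05, -2.15, -2.12 and -2.35 (adjusted p = 5.37e-08, 2.14e-07, 6.51e-06 and 1.43e-07). Between 0.4 and 10 uM, Clec10a, Mgl2 and Mrc1 fell by 1.61, 1.46 and 1.56 (adjusted p = 1.47e-06, 6.73e-05 and 0.000424), while Chil3 did not pass (log2FC -0.42, adjusted p = 0.295) and stood at 5.23 ± 1.0 CPM at 0.016 uM and 2.99 ± 0.62 at 0.4 uM.

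Of the 13 genes the study used to describe macrophage identity, 1 was higher and 4 lower, and 8 did not pass, with a median log2FC of -0.11, where 5.88% of all genes were higher and 7.94% lower. Emr1, which encodes F4/80, fell from 719, 662 and 757 CPM to 336, 331 and 367 CPM (log2FC -1.05, SE 0.14, adjusted p = 7.4e-06), and Itgam, the integrin chain CD11b, from 997, 1008 and 1028 CPM to 586, 537 and 614 CPM (log2FC -0.81, adjusted p = 0.00636). Trem2, a lipid receptor, and Tlr4, the lipopolysaccharide receptor, fell by 0.39 and 0.49 (adjusted p = 0.00471 and 0.00566). Aif1, the calcium-binding protein IBA1, rose from 6.93, 6.43 and 6.95 CPM to 19.8, 29.0 and 17.3 CPM (log2FC 1.65, SE 0.43, adjusted p = 0.0116). Each of these 5 separated the groups, and in bulk samples fewer cells of a type and less RNA per cell cannot be told apart. Among 18 Fc and complement receptors and genes of phagocytosis tested, 4 were higher and 4 lower, with a median of -0.24. The 3 chains of complement C1q rose together: C1qa from 1.69, 1.19 and 0.615 CPM to 17.98, 24.8 and 9.73 CPM, C1qb from 0.469, 0.331 and 0.123 CPM to 12.7, 22.4 and 6.98 CPM, and C1qc from 7.91, 3.37 and 2.96 CPM to 19.3, 49.2 and 10.2 CPM. Replicate 2 was the highest and replicate 3 the lowest of the treated libraries for all 3 genes, and each treated library was above the controls. The log2FC was 3.74 (SE 0.53), 4.89 (SE 0.57) and 2.27 (SE 0.75), with adjusted p = 2.43e-05, 1.77e-06 and 0.0422. C5ar1, the receptor of C5a, was also higher (log2FC 0.68, adjusted p = 0.0476), and Itgam, Itgb2 (log2FC -0.55), Cd36 (-0.83) and Mrc1 were lower, of which Itgb2 no longer passed under quantile normalisation (-0.23, adjusted p = 0.423).

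Markers of other cell types gave these values, where 5.88% of all genes were called higher and 7.94% lower. Of 8 osteoclast markers 5 were tested, of which Atp6v0d2, Ctsk (log2FC -2.55, adjusted p = 0.000379) and Mmp9 (-2.36, adjusted p = 2.34e-06) were lower and 0 higher, and the list summed to 120, 102 and 122 CPM at 0 uM and to 27.3, 38.4 and 39.8 CPM at 10 uM. Nfatc1 was the most abundant of them, Dcstamp, a protein of cell fusion, did not pass (log2FC 1.69, adjusted p = 0.124), and Acp5, the osteoclast phosphatase, was at most 0.188 CPM in any of the 6 libraries. Of 10 neutrophil markers 5 were tested and Csf3r was lower, while S100a8, the most abundant, had 95.2, 74.7 and 78.9 CPM against 50.7, 25.2 and 87.0 CPM (adjusted p = 0.224), 4 were listed at 0 in all 6 libraries, and the list summed to 186, 139 and 156 CPM at 0 uM and 72.5, 43.1 and 108 CPM at 10 uM. Dendritic cell markers summed to 6.06 to 14.2 CPM with no call among 2 tested, and of 9 erythroid and megakaryocyte markers 2 were tested and Pf4, at 1.36 to 4.14 CPM in the treated libraries, was higher (log2FC 1.82, adjusted p = 0.0259). The part of such cells in the results was not tested.

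Other genes also had large falls. Gpnmb, a glycoprotein of lysosome-rich macrophages, had 5302, 3637 and 5646 CPM at 0 uM and 404, 264 and 864 CPM at 10 uM, the most abundant of the genes named by their log2FC (-3.40, SE 0.43, adjusted p = 5.66e-06). Atp6v0d2 went from 51.9, 47.0 and 68.5 CPM to 2.71, 2.93 and 5.26 CPM (log2FC -3.93, SE 0.41, adjusted p = 2.68e-07), and Anpep from 9.82, 10.3 and 12.1 CPM to 0.644, 0.480 and 1.05 CPM (log2FC -3.69, SE 0.40, adjusted p = 5.26e-07). Each treated library was below each control for these 3 genes by a wide margin. Levels were lower and less even for Dopey2 (14.9, 4.34 and 4.20 CPM against 0, 1.42 and 0), Man2a2, a mannosidase of the Golgi (8.21, 8.01 and 5.47 against 0, 0.690 and 2.49), and Efr3b, an anchor of a lipid kinase at the plasma membrane (5.98, 6.24 and 4.39 against 0, 1.13 and 0.660). Their log2FC was -4.37 (SE 1.24), -3.41 (SE 0.75) and -3.41 (SE 0.90), with adjusted p = 0.019, 0.00341 and 0.0124.

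Beside C1q, other genes with large rises were these. Tgfbi, a matrix protein that TGF-beta induces, rose from 2.12, 3.80 and 2.71 CPM to 17.6, 24.01 and 12.6 CPM (log2FC 2.58, SE 0.27, adjusted p = 3.44e-07). P2ry13, a receptor of ADP, rose from 1.41, 1.66 and 1.34 CPM to 10.1, 13.6 and 5.42 CPM (log2FC 2.51, SE 0.52, adjusted p = 0.00181). Cd300e, a receptor of monocytes, rose from 17.5, 21.0 and 15.0 CPM to 66.8, 64.3 and 56.6 CPM (log2FC 1.81, SE 0.22, adjusted p = 3.79e-06). In these 3 genes the treated libraries stood apart from the controls, with replicate 3 the lowest of the treated. Gpr183, a receptor of oxysterols, Gpr84, a receptor of medium-chain fatty acids, and F11r, the junctional adhesion molecule JAM-A, rose by 1.80, 2.06 and 2.15 on the log2 scale (adjusted p = 0.00141, 0.00535 and 0.000248). Id3, an inhibitor of helix-loop-helix factors, and Pde3b, a phosphodiesterase of cyclic nucleotides, rose by 1.88 and 1.83 (adjusted p = 0.0302 and 0.0227). Sltm was near 0 in the controls (highest 0.0187 CPM) and at 7.54, 10.9 and 17.8 CPM at 10 uM (adjusted p = 0.00568). It averaged 1.51 ± 2.6, 5.75 ± 7.4 and 2.66 ± 2.0 CPM at 0.0006, 0.016 and 0.4 uM. The step from 0.4 to 10 uM did not pass for it (log2FC 2.84, SE 1.38, adjusted p = 0.259). Itsn2, an endocytic scaffold, had 8.66e-05, 0.808 and 3.12 CPM against 5.56, 10.98 and 16.7 CPM, with an adjusted p of 0.0404 that became 0.0858 in the NTC fit, and averaged 9.69 ± 2.0 CPM at 0.016 uM.

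Genes of cell division were higher at 10 uM as a group. Of 20 genes of mitosis and G2/M, 16 were higher and 0 lower, against 5.88% and 7.94% of all genes, with a median log2FC of 1.40, and for all 20 each treated library was above each control, against 19.6% of all genes. Mki67, a marker of cycling cells, had 86.5, 117 and 95.1 CPM at 0 uM and 272, 337 and 213 CPM at 10 uM (log2FC 1.45, SE 0.37, adjusted p = 0.0107). Top2a, the topoisomerase of chromosome segregation, had 176, 266 and 231 CPM against 496, 623 and 407 CPM (log2FC 1.18, SE 0.34, adjusted p = 0.0204). Replicate 2 was the highest of the treated libraries in both, and the summed level of the list was 908, 1332 and 1131 CPM at 0 uM and 2692, 3840 and 2153 CPM at 10 uM. The 4 that did not pass included Bub1 (log2FC 0.74, adjusted p = 0.304) and Aurkb (0.91, adjusted p = 0.0729), and the NTC fit called all 20 higher. Aspm, a spindle protein outside the list, and the cyclin Ccna2 rose by 1.93 and 1.76 (adjusted p = 0.0155 and 0.00718). At the 3 lower doses none of the 20 was called against 0 uM. Against the shared 0 uM controls the median log2FC of the list was 0.77 at 0.0006 uM, 0.86 at 0.016 uM and 0.76 at 0.4 uM, and the direct test of 10 uM against 0.4 uM called none of the 20 (median 0.60), while the NTC fit called 6 higher, among them Mki67 (adjusted p = 0.00581), Top2a (adjusted p = 0.0238) and Ccna2 (adjusted p = 0.0159). Mki67 had 99.6 ± 16 CPM at 0 uM, 160 ± 19, 169 ± 25 and 164 ± 23 at the middle doses and 274 ± 62 at 10 uM, and Top2a had 224 ± 46, 342 ± 79, 332 ± 44, 328 ± 37 and 509 ± 110. No NTC library that received baricitinib was as low in Mki67 as the highest of 0 uM. Of 20 genes of G1/S and DNA replication, 5 were higher and 1 lower, with a median of 0.62, and for 14 of them the treated libraries were all above the controls. Tyms, which makes thymidylate, and Pcna, the replication clamp, rose by 1.24 and 0.51 (adjusted p = 0.00756 and 0.0305), and E2f1, a factor of S phase entry, fell by 0.50 (adjusted p = 0.0186).

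**Figure D4:**
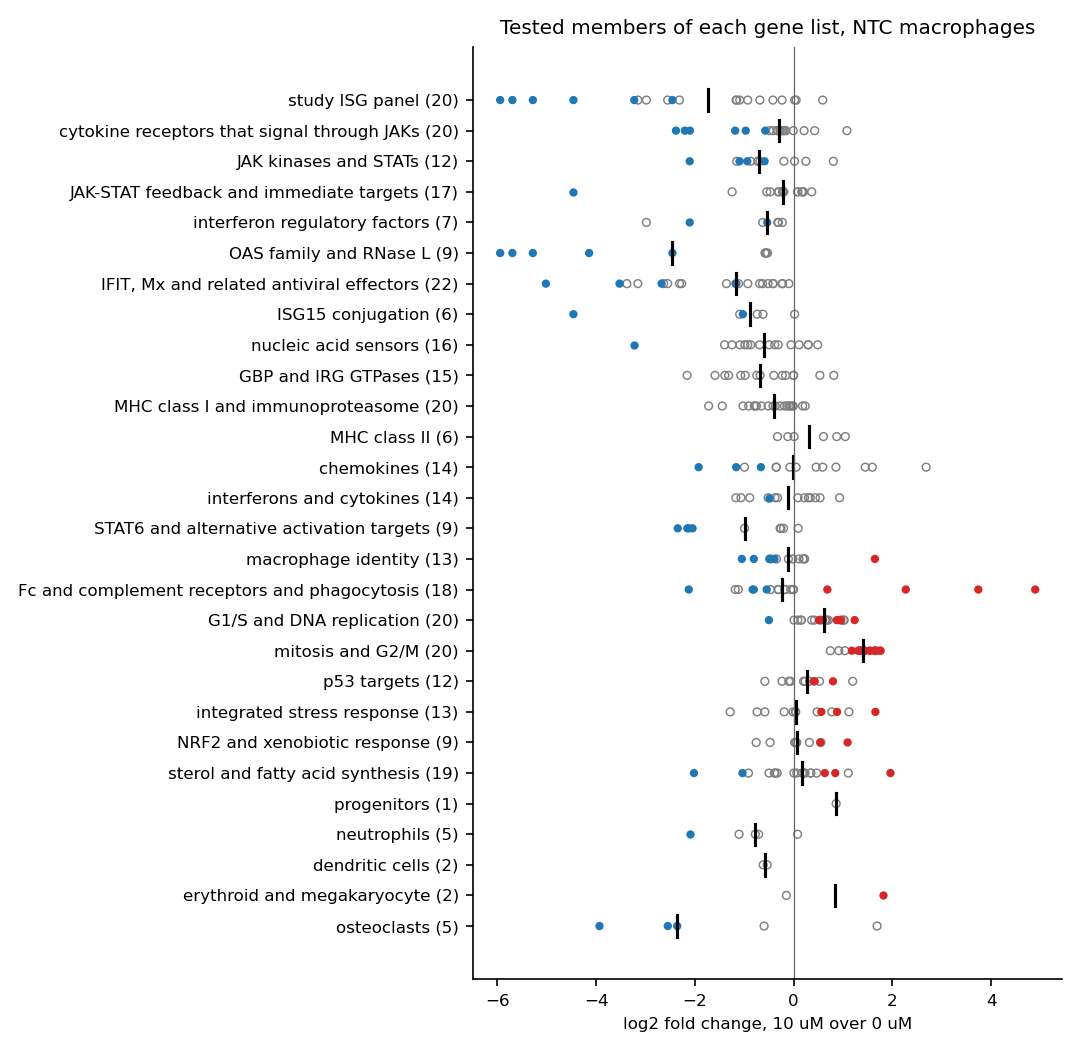
Each point is a tested member of a gene list, placed by its log2 fold change of 10 uM over 0 uM baricitinib (x axis), filled red or blue where it was called higher or lower and open where it did not pass, with a black bar at the median and the number of members tested in brackets. The mitosis list lies wholly to the right of 0 (median 1.40) and the median of the ISG panel lies at -1.74, and the leftmost point is Oas2, listed at 0 at 10 uM, whose place depends on the prior count.

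For stress and metabolic genes, the shares of all genes are 5.88% called higher and 7.94% lower, and 19.6% and 21.2% with all treated libraries above or below the controls. Of 12 p53 targets tested 3 were higher, Cdkn1a (the cell cycle inhibitor p21, log2FC 0.80), Ccng1 (0.43) and Bax (0.41), with a median of 0.28. In the integrated stress response 3 of 13 were higher: Asns, asparagine synthetase, had 57.1, 71.2 and 67.2 CPM against 120, 120 and 119 CPM (log2FC 0.88, adjusted p = 0.00213), Phgdh, of serine synthesis, rose by 1.66 (adjusted p = 0.00465) and Hspa5, a chaperone of the endoplasmic reticulum, by 0.56 (adjusted p = 0.0485). The median of that list was 0.04, all 3 treated libraries lay above the controls for 6 of the 13 and below them for 2, and the NTC fit called 5 higher and 2 lower, where 13.2% and 15.3% of all genes were. Of 9 genes of the NRF2 and xenobiotic response, Gclm, of glutathione synthesis, and Txnrd1, thioredoxin reductase, rose by 1.09 and 0.54 (adjusted p = 0.0133 and 0.0309). Among 19 genes of sterol and fatty acid synthesis, 3 were higher and 2 lower, with a median of 0.18. Nr1h3, the oxysterol-sensing receptor LXR-alpha, went from 21.2, 18.97 and 22.3 CPM to 5.29, 4.39 and 5.46 CPM (log2FC -2.02, SE 0.32, adjusted p = 0.000124), and Srebf1, a regulator of fatty acid synthesis, fell by 1.03 (adjusted p = 0.0163). Abca1, the cholesterol exporter, rose from 1.20, 1.41 and 0.568 CPM to 2.92, 5.33 and 5.11 CPM (log2FC 1.96, adjusted p = 0.0391), and the synthesis enzymes Idi1 and Cyp51 rose by 0.84 and 0.63 (adjusted p = 0.000962 and 0.0211).

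The same dose was also given to Adar1 KO macrophages, and the difference of both effects, KO minus NTC, was tested directly. It was higher for 2173 genes (19.5%) and lower for 2230 (20%). Adar itself had 171, 91.4 and 82.7 CPM in the KO libraries at 0 uM, above the NTC libraries, and 2.79, 4.31, 7.38 and 3.93 CPM at 10 uM, and since an edited gene can still be transcribed, its RNA does not check the edit. In the ISG panel the difference was lower for 13 of 20 genes and higher for 0, with a median of -4.09. Cxcl10, Ifi44 and Rsad2 passed the filter only through the KO libraries and had at most 1.16 CPM in the 6 NTC libraries. Ifi44 and Rsad2 are among the 13, and their differences mostly restate the KO level at 0 uM. The KO cells started higher: Oas1a had 492 ± 23 CPM (SD, n = 3) at 0 uM and 21.1 ± 1.6 (n = 4) at 10 uM, where the NTC cells had 120 ± 11 and 21.96 ± 4.0. Usp18 had 383 ± 40 CPM in KO and 13.01 ± 3.9 in NTC cells at 0 uM, and 0.504 ± 0.41 against 0.463 ± 0.21 at 10 uM. The levels of these 2 genes lay close together at 10 uM, so that their differences lie mainly in the KO level at 0 uM. The difference passed for Usp18 but not for Oas1a (adjusted p = 0.0602). Stat2 was not as close, with 13.75 ± 1.5 CPM in NTC and 5.58 ± 1.5 in KO cells at 10 uM. By the size of the difference the lowest were Ifi44, Ly6a, Ms4a4c, Ccl5 and Rsad2 (-7.80 to -6.66), all under 3.1 CPM in the 6 NTC libraries and at 41.7 to 141 CPM on average in the KO cells at 0 uM. Except for Ccl5, these genes passed the filter only through the KO libraries. Their differences mostly restate the KO level at 0 uM and are not read as a contrast of responses. The highest were Tdp2, Fam105a, Hist1h2ap, Wbp5 and Ndufa9 (6.24 to 4.10), of which none passed in NTC cells in the fit of 33 libraries, while Wbp5 (18.9, 22.1 and 20.2 CPM against 37.1, 38.2 and 38.3 CPM) was higher in the NTC fit (adjusted p = 3.34e-05). Mitosis genes rose more in KO cells, with 18 of 20 higher in the difference, and Mki67 had 20.7 ± 5.9 CPM in them at 0 uM and 534 ± 110 at 10 uM. In the other direction, the NTC cells fell more than the KO cells in Plp2 (difference 2.29, adjusted p = 7e-08), Mgl2 (2.06, adjusted p = 6.58e-06) and Mrc1 (1.32, adjusted p = 0.00616). Plp2 fell in KO cells as well, from 118.9 ± 8.3 CPM at 0 uM to 17.6 ± 3.2 at 10 uM (log2FC -2.76, adjusted p = 8.59e-14). In NTC cells it had 36.5 ± 0.68 and 0.996 ± 0.40 CPM. Mgl2 had 35.1 ± 7.8 CPM in KO cells at 0 uM and 34.7 ± 16 at 10 uM. C1qa rose in KO cells from 0.736 ± 0.28 to 10.8 ± 3.4 CPM, and its difference did not pass (-0.10, adjusted p = 0.925).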

How the data were processed

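Bulk RNA-seq of cultured mouse macrophages was used, in 6 libraries of 92, with 27 other libraries of the baricitinib experiment in the same fit and 59 columns of the series not analysed. The log2 values are TMM-normalised CPM as deposited by the authors, who trimmed the reads, assigned them to the GRCm39 transcriptome (Ensembl release 99) with kallisto 0.46.0, summed them to genes with tximport from TPM and normalised them with edgeR. Their library kit does not mark strand, so genes that overlap on opposite strands cannot be told apart. The lowest value, -2.781, is shared by the 33 libraries and was taken as 0 CPM. With a prior count of 2 it corresponds to a mean library of 13.75 M counts, and the depth of single libraries cannot be recovered, since the counts were built from TPM. The row without a gene name holds 0.00637% to 0.00985% of the CPM of the 6 libraries.

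Genes with CPM over 1 in at least 3 of 33 libraries were fitted with limma 3.58.1 in R 4.3.3, with a mean for each of 10 groups, an eBayes trend and Benjamini-Hochberg adjustment over all 11152. Some members of the gene lists passed this filter only through the Adar1 KO libraries and were not tested in the NTC fit. Calls are at an adjusted p under 0.05. The code was run on simulated data first. Named are the members of 30 gene lists, Adar, and, at either end of the log2FC, the 15 most extreme genes (5 at either end in the other contrasts) that were called, did not overlap between groups and had a mean over 5 CPM in the higher group, without predicted genes. A few of these genes are left unreported. For the difference between the lines, the ranges of the effects must not overlap. Members and lists were chosen with earlier results of these data known. Alternatives changed the libraries in the fit, the filter, the offset, the scaling, library weights, the trend and the thresholds, and left out each replicate. Same-numbered replicates did not deviate together, so no block was used. The names of the 17 NTC libraries fall into 4 sets that hold a dose at most once and that the replicate numbers do not follow throughout. Only sets 1 and 4 hold both 0 and 10 uM, and what a set stands for is not given.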

Additional observations from a re-analysis of the deposited data

Results flagged for a closer look

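Of the 116 named genes followed one by one, 68 stood out because the effect of 10 uM baricitinib differed between Adar1 KO and NTC macrophages by limma's test of that difference, 41 lower and 27 higher in KO minus NTC. Their adjusted p runs from 1.37e-10 (Stat6) to 0.0494 (Uba7) and values in brackets are the differences on the log2 scale. 10 of the 68 were named because they are extremes of this same difference (Ifi44, Ly6a, Ms4a4c, Ccl5, Rsad2, Tdp2, Fam105a, Hist1h2ap, Wbp5 and Ndufa9), so that the count is not set against the share of all genes.

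Among interferon-stimulated genes the differences were those of Oas1g (-4.18), Oas3 (-4.93), Usp18 (-4.93), Zbp1 (-3.57), Stat2 (-4.11), Irf7 (-6.49), Ifit1 (-5.91), Ifit2 (-6.01), Rsad2 (-6.66) and Ifi44 (-7.80). Further genes of antiviral defence and antigen presentation were Slfn5 (-3.13), Slfn8 (-3.33), Oasl2 (-5.45), Uba7 (-1.14), Adar (-3.21), B2m (-2.51), H2-K1 (-3.12), Cd74 (1.80), Ly6a (-7.40) and Ms4a4c (-6.88). For receptors, STATs and secreted factors the values were Csf3r (-1.93), Ifngr1 (0.54), Stat5a (-0.88), Stat5b (-1.01), Stat6 (-2.90), Ccl5 (-6.82), Ccl9 (0.59), Il16 (-1.44) and Tnf (-1.36). Rsad2, Ifi44, Ly6a and Ms4a4c passed the filter only through the KO libraries, and like Ccl5 they were low in NTC macrophages at both doses compared. The differences of these genes mostly restate the KO level without baricitinib. They remain in the count above but are not read as a contrast of responses. Other listed interferon-stimulated genes were low in both lines at 10 uM: Oas1g, Oas3, Usp18, Oasl2, Ifit1, Irf7 and Zbp1. Oas1g averaged 167.7 CPM in KO and 11.52 in NTC macrophages at 0 uM, and 0.04751 and 0.08283 CPM at 10 uM. Ifit2 went from 822.7 to 10.7 CPM in KO and from 14.3 to 12.02 CPM in NTC macrophages. The differences of these genes too lie mainly in the KO level at 0 uM, and alone they show no contrast of responses.

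Macrophage and alternative activation genes gave Mrc1 (1.32), Mgl2 (2.06), Clec10a (0.70), Csf1r (-2.04), Emr1 (-0.90), Tlr4 (-0.70), Trem2 (-0.41), Itgb2 (-0.51), Cd36 (-1.33), S100a8 (1.45) and Pf4 (2.39). Cell cycle genes and p53 targets gave Aspm (3.19), Ccna2 (3.19), Mki67 (3.25), Top2a (2.88), Bub1 (2.39), Aurkb (1.84), Tyms (2.03), Pcna (1.16), E2f1 (-1.52), Cdkn1a (1.45) and Bax (0.88). Stress and lipid genes gave Phgdh (-2.33), Gclm (1.25), Idi1 (0.59), Abca1 (-3.42), Nr1h3 (-1.20) and Srebf1 (-1.08). The remaining genes, named for the size of a change, were Plp2 (2.29), Anpep (-3.17), Man2a2 (-3.21), Gpnmb (-3.03), Sltm (-6.21), Gpr183 (1.67), Tdp2 (6.24), Fam105a (6.05), Hist1h2ap (4.55), Wbp5 (4.20) and Ndufa9 (4.10).

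Phgdh and Abca1 rose in NTC macrophages (log2FC 1.66 and 1.96) and had a log2FC of -0.68 and -1.46 in KO macrophages. Stat6 fell in both lines, by 0.59 in NTC and 3.49 in KO macrophages. In the groups of 4 NTC libraries, at 0.016 and 0.4 uM, none of the 20 genes tested for a library far from the others (40 tests, of which chance gives about 1 in 20) had one.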

How the results depend on the processing

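Of 116 named genes followed one by one, 84 were called, and 0 of the 105 to 116 tested under each alternative were reversed. Without 1 replicate, 15 (replicate 3 of 10 uM) to 32 (replicate 1 of 0 uM) had a weaker result, without a filter 16, without the trend 8, and under each other alternative 4 at most. With only the libraries compared, 1066 genes were higher at 10 uM and 14 of the ISG panel lower, and 517 and 752 genes were higher and lower than at 0.4 uM. The 17 NTC libraries gave 1426 and 1645 against 0 uM, 14 of the panel, and 734 and 1065 against 0.4 uM. A weight for each library gave 1672 and 1911, 14 of the panel, and 1025 and 1340 against 0.4 uM. Without the Adar1 KO 0.4 uM library that stands apart, an alternative chosen after seeing the data, 1073 were higher, 15 of the panel lower, and 366 and 587 differed from 0.4 uM. Each of these changes the spread that the test uses, and the cause of the gain was not tested further.

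Genes with a log2FC of at least 2 numbered 9 higher and 34 lower with log2(CPM + 1), 7 and 45 with a mean CPM over 5 (fewer genes tested), and 164 and 327 with a log2FC limit of 1. At an adjusted p under 0.01 the counts were 196 higher and 418 lower, 10 higher with the larger log2FC, 19 and 123 against 0.4 uM, and 1311 higher in KO minus NTC.

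With 1 replicate left out, the ranges were 222 to 503 higher and 441 to 705 lower, 9 to 23 and 50 to 75 with the larger log2FC, 3 to 5 of the panel lower, 24 to 76 and 120 to 282 against 0.4 uM, and 1855 to 2003 and 2006 to 2121 in KO minus NTC. The lowest counts of genes called against 0 uM were those without replicate 1 of 0 uM (222 and 441).

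The deviations of same-numbered libraries from their group means correlated at -0.0387, 0.0791 and 0.0282. These values show no pairing by replicate number. They cannot tell whether cultures were paired in another way, which the labels do not give. With the replicate block in the fit of 6 libraries, 943 genes were higher, 1128 lower and 13 of the panel lower, where the 6 libraries alone gave 1066 higher and 14 of the panel. With the set of library names as a block in the fit of the 17 NTC libraries, chosen after seeing the data, 1371 genes were higher and 1633 lower, 14 of the panel lower, and 923 and 1138 genes differed from 0.4 uM. Deviations correlated at a median of 0.0323 within a set and -0.0012 between sets. Quantile normalisation moved the median log2FC of all genes from -0.005 to 0.024, and the panel and mitosis medians to -1.66 and 1.41. The depth of single libraries is unknown, so no floor is given for values near 0 CPM.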
